A study of Mus musculus with 8 samples.

Results

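The 77 mitochondrial ribosomal protein genes measured here are all those whose single symbol in the platform's annotation has the form Mrpl or Mrps followed by a number, out of 19938 genes with 1 symbol. Of these, 48 carry an Mrpl symbol (large subunit) and 29 an Mrps symbol (small subunit), and 1 further probe set was left out because it carried a member's symbol together with another gene's. The genes were chosen by name and not by their values.

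The mitochondrial ribosome, or mitoribosome, translates the few messenger RNAs of the mitochondrial genome, which encode core proteins of the respiratory chain and of ATP synthase. Its RNA comes from the mitochondrial genome, but every one of its proteins is encoded in the nucleus, made in the cytosol and imported. Part of these proteins have homologues in the bacterial ribosome and the others are found only in mitochondria. Blood stem cells at rest are known for a low reliance on respiration, and mitochondrial translation is known to be needed as they divide and differentiate.

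Expression was measured on 8 single-colour arrays, 4 labelled KLF7 and 4 labelled control. The c-Kit-positive cells of C57Bl/6 bone marrow received either a control virus or a lentivirus for KLF7, a zinc finger transcription factor of the Krüppel-like family. KLS cells, which lack lineage markers and carry c-Kit and Sca-1 (Lin- c-Kit+ Sca-1+), were sorted 72 hours afterwards, and their RNA was amplified, in both groups alike. The age of the mice, what the control virus carried and whether each array came from its own culture or animal are not given in the labels, so a p-value below reflects the variation of these arrays alone, and that may be technical. Levels are log2 of the deposited intensity throughout, and differences are differences of log2 levels. The number of arrays limits the precision of each value.

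Klf7 itself lay at 11.43, 10.19, 11.05 and 10.52 on arrays KLF7 1 to 4 and at 8.53, 10.28, 9.35 and 7.98 on arrays control 1 to 4. The groups overlapped, because control 2 stood above KLF7 2, so the groups are called here by their labels. Array medians ran from 5.53 to 5.76. The arrays numbered 4 had the widest spread across genes, with an interquartile range of 2.92 for KLF7 4 and 2.78 for control 4 against 2.42 to 2.64 on the others. They also had the lowest median of the 6615 control probe sets, 5.43 and 5.29 against 5.52 to 6.07.

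The labelled cell type was compared with its markers. Of 10 markers of KLS and stem cells, 8 were measured, and Ly6a, which encodes Sca-1, was not analysed here. The receptor gene Kit lay at 10.52, 9.96, 10.37 and 7.85 on the KLF7 arrays and at 9.57, 9.85, 9.69 and 8.33 on the control arrays. Kit was therefore lowest on the array numbered 4 in both groups. Cd34, a surface marker of progenitors, was highest there in both groups, at 10.71 against 9.27 to 10.36 on the other KLF7 arrays and at 10.95 against 9.53 to 10.07 on the other control arrays. Slamf1, Meis1 and Flt3, named after their values were seen, were also highest on the array numbered 4 in both groups, by 0.46 and 1.33, 0.42 and 0.90, and 0.79 and 1.75 over the mean of the other arrays. Hlf, Procr and Mecom, the remaining markers, were neither highest nor lowest there in both groups. Hlf, a transcription factor of stem cells, was at 6.29, 7.17, 6.72 and 6.50 on the KLF7 arrays and at 7.53, 7.50, 7.25 and 8.03 on the control arrays, without overlap (-0.90, SE 0.23, adjusted p 0.327 in limma). No intensity in the file is 0 and no detection calls were given, so no marker can be called absent.

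The mitochondrial ribosomal protein genes moved together from array to array. Their mean level was 6.77, 7.55, 6.84 and 7.97 on arrays KLF7 1 to 4 (7.28 ± 0.58, SD, n = 4) and 7.11, 7.06, 7.35 and 7.92 on arrays control 1 to 4 (7.36 ± 0.40, SD, n = 4). The arrays numbered 4 were the highest of each group, and the ranges of the groups overlapped. The mean of all 19938 genes stayed between 5.88 and 5.93 on the 8 arrays. The arrays were normalised before deposit, which holds such a mean nearly constant. It therefore does not show whether expression as a whole differed between arrays. In bulk samples such as these, fewer cells of a type and less RNA per cell cannot be told apart.

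Within a group the median of these genes spread more widely than the median of all genes. The median SD of a mitochondrial ribosomal protein gene was 0.64 among the KLF7 arrays and 0.43 among the control arrays, against 0.25 and 0.21 for all genes. Among the 4 KLF7 arrays, 44 of the 77 genes were lowest on KLF7 1 and 31 on KLF7 3, and KLF7 2 lay above both of these for 74 genes (96.1%, against 31.7% of all genes). Among the control arrays, 38 genes were lowest on control 2, 32 on control 1 and 7 on control 3. The arrays of highest Klf7 in the KLF7 group, KLF7 1 and KLF7 3, were those of lowest mean for the mitochondrial ribosomal protein genes, and in the control group control 4 had the lowest Klf7 and the highest such mean. The order did not hold for every array. KLF7 2 had the lowest Klf7 of its group, while KLF7 4 had the highest mean of these genes. Control 1 lay below control 3 both in Klf7 and in that mean. With 4 arrays a group a relation to Klf7 was not tested.

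**Figure D1:**
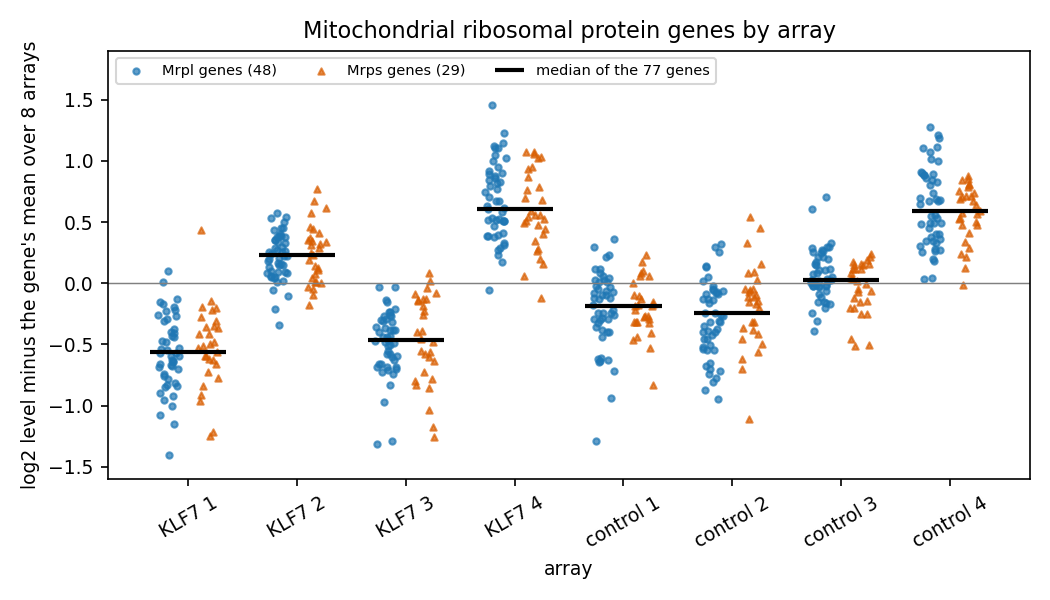
Each point is 1 of the 77 genes, drawn as its log2 level on an array minus its mean over the 8 arrays, with Mrpl genes as circles, Mrps genes as triangles and a black bar at the median. The medians are -0.56, 0.23, -0.47 and 0.61 for KLF7 1 to 4 and -0.19, -0.25, 0.02 and 0.59 for control 1 to 4, so the arrays numbered 4 are highest in both groups.

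The level on the array numbered 4 was then set against the mean of arrays 1 to 3 within each group. This is a description without a test, since the arrays numbered 4 were picked out in earlier results of the same data. The median difference of the 77 genes was 0.91 in the KLF7 group (1.88-fold) and 0.73 in the control group (1.66-fold), against -0.02 and -0.01 over all genes. In 65 of the 77 genes (84.4%) the array numbered 4 stood above all 3 others in both groups, against 18.9% of all genes and 30.2% of the brighter 50% of genes, in which all 77 fall. None stood below the other 3 in both groups, against 18.5% of all genes. A difference of more than 1 log2 in both groups was found for 19 of the 77 (24.7%) and for 1.48% of all genes.

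**Figure D2:**
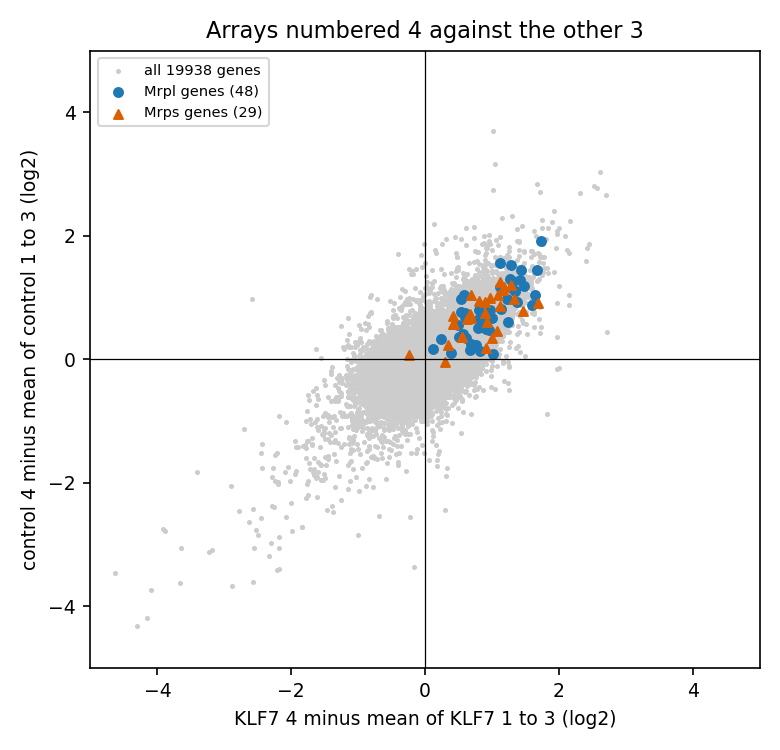
The horizontal axis is the log2 level on KLF7 4 minus the mean of KLF7 1 to 3, and the vertical axis the same for the control arrays. Grey points are all 19938 genes, circles the 48 Mrpl genes and triangles the 29 Mrps genes, of which 75 of 77 lie above 0 on both axes.

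Mrpl41, a large subunit protein found only in mitochondria, differed most by the probe set kept here. It lay at 6.83, 7.71, 6.43 and 8.72 on KLF7 1 to 4 and at 5.97, 6.95, 6.95 and 8.54 on control 1 to 4, a difference for the arrays numbered 4 of 1.73 in the KLF7 group and 1.91 in the control group. Mrpl13, the homologue of bacterial L13, lay at 6.57, 7.96, 6.86 and 8.81 on the KLF7 arrays and at 6.97, 7.27, 7.49 and 8.68 on the control arrays. In both genes the array numbered 4 was the highest of its group by a wide margin, and the KLF7 and control arrays of that number were close to each other.

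Mrpl52, another protein of the large subunit without a bacterial homologue, was at 7.19, 7.99, 6.86 and 8.78 on KLF7 1 to 4 and at 7.45, 7.70, 7.63 and 9.04 on control 1 to 4. Mrpl34, the homologue of bacterial L34, was at 6.39, 7.78, 6.78 and 8.26, and at 6.98, 6.57, 7.45 and 8.53. Both repeated the order in which KLF7 4 and KLF7 2 stood above KLF7 1 and KLF7 3.

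Not every gene had the array numbered 4 above all 3 others in both groups. Positive differences in both groups were still found for 75 of the 77. The 12 genes outside the 65 were Mrpl12, Mrpl19, Mrpl24, Mrpl44, Mrpl49 and Mrpl58 of the large subunit and Mrps2, Mrps5, Mrps10, Mrps14, Mrps26 and Mrps27 of the small one, of which Mrpl44, Mrpl58, Mrps14 and Mrps26 are named after their values were seen. Mrps10, which encodes the homologue of bacterial S10, was at 6.99, 6.56, 6.48 and 6.44 on the KLF7 arrays and at 6.28, 6.45, 6.71 and 6.55 on the control arrays. It was the only gene of the 77 with a level on KLF7 4 below the mean of KLF7 1 to 3 (-0.24). Mrps2, the homologue of bacterial S2, was the only one with control 4 below the mean of control 1 to 3 (-0.05). Mrpl24 differed by 0.12 and 0.17 and Mrpl49 by 0.39 and 0.10, so these 4 genes had the smallest shifts.

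The shift was seen in both subunits and in both classes of descent. The array numbered 4 was above the other 3 in both groups for 42 of 48 Mrpl genes and for 23 of 29 Mrps genes, with median differences of 0.92 and 0.90 in the KLF7 group and 0.73 and 0.73 in the control group. Of the 46 genes classed here as having a homologue in the bacterial ribosome 39 behaved so, and of the 31 classed as without one 26. Some genes, such as Mrpl47 and Mrps28 in the second class, may be classed otherwise elsewhere, so these counts are approximate. These classes were compared by counts only. Symbols do not always give the subunit: Mrps18a and Mrps30 belong to proteins that structures place in the large subunit, Mrpl58 is a peptide release factor built into the ribosome, and Mrps36 is known as a subunit of an enzyme of the citric acid cycle.

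The paralogues Mrps18a, Mrps18b and Mrps18c, which encode relatives of bacterial S18 at different sites of the ribosome, all shifted. Mrps18a differed by 1.18 and 1.17 in the KLF7 and control groups, Mrps18c by 1.10 and 1.04, and Mrps18b by 1.08 and 0.46. Mrps12, the homologue of the decoding site protein S12, was at 7.12, 8.71, 7.93 and 9.03 on the KLF7 arrays and at 8.44, 7.84, 8.48 and 9.12 on the control arrays. Mrpl45, which anchors the ribosome to the inner membrane, was at 5.59, 6.24, 6.01 and 6.74, and at 6.17, 5.70, 6.26 and 6.56. Each was highest on the array numbered 4 in both groups. Mrpl12, a protein of the stalk that binds translation factors, was an exception in the KLF7 group, where KLF7 2 (8.42) and KLF7 4 (8.40) were nearly level, while control 4 (9.07) stood above the other control arrays (7.82 to 8.38).

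For 8 of the 77 genes a second probe set with the same symbol was measured and not used above. All 8 of these second probe sets were also higher on the array numbered 4 in both groups, by 0.43 to 1.62 in the KLF7 group and by 0.09 to 1.23 in the control group. For Mrpl41, the second probe set differed by 0.43 and 0.37 where the kept one differed by 1.73 and 1.91. The sources used here do not give which transcript or gene copy each probe set reads, so the size of the Mrpl41 shift is uncertain.

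The other lists of nuclear genes for mitochondria differed in their shifts. Of 20 genes of mitochondrial import and chaperones, 15 were highest on the arrays numbered 4 in both groups, with medians of 0.91 and 0.78 that lay close to those of the ribosomal proteins. The other lists had smaller medians. Of 12 nuclear regulators of mitochondrial genes, 2 were below the other 3 arrays in both groups and 4 were highest (0.24 and 0.10). Of 4 mitoribosome proteins whose symbols have another form, 2 were highest in both groups (0.74 and 0.65). Of 16 mitochondrial translation factors 8 were (0.48 and 0.32), and of 19 genes that transcribe, replicate or process the mitochondrial genome 9 were (0.34 and 0.16). The mitochondrial aminoacyl-tRNA synthetases, which charge transfer RNAs, gave 6 of 19 (0.16 and -0.01), and the factors that assemble the mitoribosome 7 of 24 (0.29 and 0.12). These last counts are closer to the 18.9% of all genes, and to the 30.2% of the brighter 50%, than those of the ribosomal proteins themselves.

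The 84 genes of the respiratory chain and ATP synthase, which work with the products of mitochondrial translation, gave the nearest counts of the lists compared. Of these 69 were highest on the arrays numbered 4 in both groups (medians 0.95 and 0.90). Their mean level followed the same order of arrays, 7.91, 8.93, 8.09 and 9.22 on the KLF7 arrays and 8.24, 8.07, 8.50 and 9.15 on the control arrays. The 59 proteins of the cytosolic ribosome gave 28 (medians 0.40 and 0.38). The differences between lists were not tested.

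**Figure D3:**
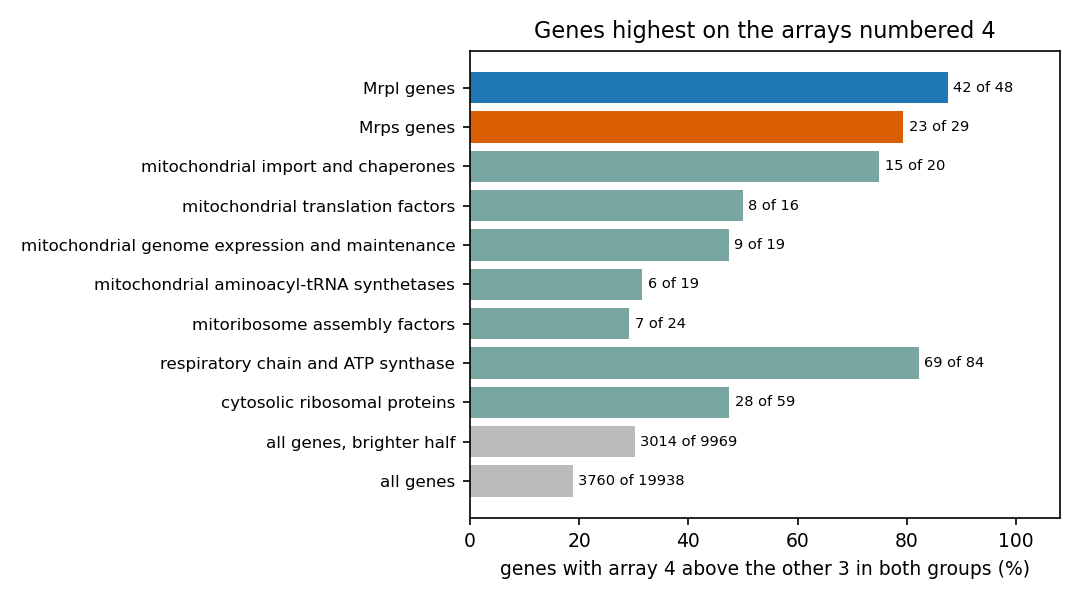
Bars start at 0 and give the percentage of each list's genes whose level on the array numbered 4 was above the other 3 arrays in both groups, with the counts beside them. Mrpl genes (42 of 48), Mrps genes (23 of 29) and the respiratory chain list (69 of 84) stand above all genes (3760 of 19938).

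Markers of other cell types moved with these arrays. All 9 markers of mast cells and basophils were below the other 3 arrays on the array numbered 4 in both groups, and the mean of the list was 9.20, 10.29, 10.37 and 6.81 on KLF7 1 to 4 and 9.21, 9.89, 9.90 and 6.48 on control 1 to 4. Cpa3, a mast cell protease named after its values were seen, was at 7.998 on KLF7 4 and 7.48 on control 4, against 11.11 to 12.56 on the other 6 arrays. Of 12 neutrophil markers 6 were below the others in both groups and 1, the collagenase gene Mmp8 (named after its values were seen), was above them by 1.60 and 1.75, with a list mean of 7.996 against 8.30 to 10.12 in the KLF7 group and of 7.75 against 8.94 to 10.01 in the control group. Of 6 megakaryocyte markers 4 were above, with a list mean of 9.14 against 7.66 to 8.72 and of 9.58 against 8.08 to 8.32. List means moved little for B cells (4.69 to 4.998 on the 8 arrays) and for T and NK cells (4.52 to 4.93). The mean for stroma and endothelium also moved little (5.08 to 5.37). Cd79b, a B cell marker named after its values were seen, was highest on the array numbered 4 in both groups, by 1.06 and 1.10. Of 14 markers of monocytes, macrophages and dendritic cells 1 was above and 0 were below. Of 6 erythroid markers 0 were above and 1 was below. The part of these markers, of the wider spread across genes and of the lower control probe sets in the shift of the mitochondrial ribosomal protein genes was not tested.

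**Figure D4:**
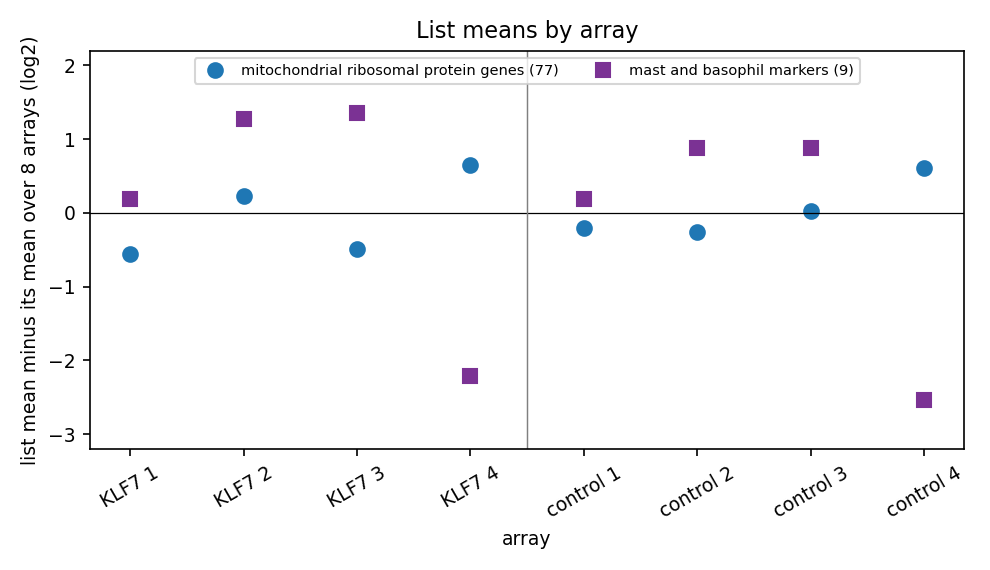
Circles are the mean of the 77 mitochondrial ribosomal protein genes and squares the mean of 9 mast cell and basophil markers on each array, each minus its own mean over the 8 arrays (log2). On KLF7 4 and control 4 the first stand at 0.65 and 0.60 and the second at -2.21 and -2.54.

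Promoters are shown because the genes moved together across arrays. RefSeq promoters (GRCm38.p6, 250 bases before to 50 after the start) were matched for 68 of the 77 genes, 74 promoters in all, and motifs were searched as letters on both strands. The motif CCGGAAG, bound by GABPA and other ETS factors, was in 33.8% of these promoters and in 8.86% of all 32851. The motif of NRF1, a regulator of nuclear genes for mitochondria, read as GCGCA and GCGC with any 1 base between them, was in 17.6% against 4.60%, and AAGATGGCG, that of YY1, in 10.8% against 1.40%. GGGCGGG, bound by SP and KLF factors, was in 43.2% against 25.6%, while CCACACCC, another KLF motif, was in 1.35% (1 promoter) against 3.56%. CACGTG, the MYC motif, was in 9.46% against 7.15%. Counted by gene, CACGTG was in 5 of the 68 (7.35%), because Mrpl2 had more than 1 matching promoter. A match to CCGGAAG overlapped one to GGGCGGG in 1 promoter, and no other pair of motifs overlapped. The promoters of these genes held more G and C than all promoters, with a median of 58.5% against 52.7%. A match describes letters and does not show binding.

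The 120 bases before the start follow for 5 genes, with matches to any of the 6 motifs in capitals. Mrpl52 and Mrpl34 stand for large shifts with a CCGGAAG match (CTTCCGG on the other strand), and Mrpl12 for the NRF1 motif. Mrps27 stands for the lowest difference between the KLF7 and control arrays. Mrpl41 stands for the largest shift of a kept probe set, without a match in its promoter. Its second probe set shifted by only 0.43 and 0.37. Which gene copy the kept probe set reads is not given, so the printed promoter may not belong to that shift.
Mrpl52, chr14:54426789-54426908, plus strand: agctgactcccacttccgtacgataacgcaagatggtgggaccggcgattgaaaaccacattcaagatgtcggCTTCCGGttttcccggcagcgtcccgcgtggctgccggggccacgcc
Mrpl34, chr8:71464806-71464925, plus strand: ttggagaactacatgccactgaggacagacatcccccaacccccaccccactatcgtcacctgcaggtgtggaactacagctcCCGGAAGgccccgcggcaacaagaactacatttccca
Mrpl41, chr2:24975099-24975218, minus strand: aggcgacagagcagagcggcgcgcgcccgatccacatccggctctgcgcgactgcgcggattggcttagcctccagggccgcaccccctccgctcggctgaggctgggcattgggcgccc
Mrpl12, chr11:120484517-120484636, plus strand: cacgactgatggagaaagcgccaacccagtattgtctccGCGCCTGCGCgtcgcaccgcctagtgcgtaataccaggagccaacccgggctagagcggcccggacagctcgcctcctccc
Mrps27, chr13:99344666-99344785, plus strand: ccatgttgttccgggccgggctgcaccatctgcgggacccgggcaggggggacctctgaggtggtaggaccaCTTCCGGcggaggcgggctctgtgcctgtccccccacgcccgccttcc

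The shift on the arrays numbered 4 was present with and without the motifs. Of the 25 genes with CCGGAAG, 22 were highest there in both groups (median of the mean shift 0.98), and of the 43 without it 35 (0.71). Of the 13 genes with the NRF1 motif the count was 10 (0.80), and of the 55 without it 47 (0.76). For GGGCGGG it was 26 of 29 (0.77) against 31 of 39 (0.76), and for the YY1 motif 7 of 8 (1.15) against 50 of 60 (0.76). These splits were not tested.

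The study's own question was which genes differ between KLF7 and control cells. For the mitochondrial ribosomal protein genes the groups could not be separated. In limma's fit of all genes with Benjamini-Hochberg adjustment, 0 of the 77 had an adjusted p under 0.05, against 0.0% of all genes, and the smallest adjusted p was 0.645. At an unadjusted p under 0.05 there were also 0 of 77, against 709 genes lower (3.56%) and 928 higher (4.65%) among all. Without KLF7 4 this count was 5 lower (6.49%, against 4.78% of all genes). Without both arrays numbered 4 it was 2 lower (2.60% against 4.49%), and without KLF7 2 it was 1 lower (1.30% against 3.1%). The mean was lower on the KLF7 arrays for 47 of the 77 and higher for 30, where 49.6% of all genes were lower. The median difference was -0.06, against 0.0019 for all genes, and single genes ran from -0.53 to 0.37. For 65 of the 77 genes (84.4%, against 62.6% of all genes) the difference was smaller than its own SE, whose median was 0.32 against 0.18 for all genes.

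The small median did not keep its sign. It was 0.11 without KLF7 1, 0.06 without KLF7 3 and 0.10 without control 4, and 0.05 with array weights. Without KLF7 4 it was -0.28 with 72 of 77 genes lower, and without both arrays numbered 4 it was -0.10 with 53 lower. It was also -0.17 without control 2, -0.14 without KLF7 2 and -0.11 without control 1. In none of these settings did a member pass in limma with Benjamini-Hochberg adjustment, and the smallest adjusted p of a member ran from 0.150 to 0.858 over all fits.

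The KLF7 arrays had the higher average for 11 of 14 markers of monocytes, macrophages and dendritic cells. An unadjusted p under 0.05 was reached by 8 of these, against 4.65% of all genes, and none of the 14 passed the adjusted threshold (smallest adjusted p 0.327 in limma). The mean of the list was 7.84 to 8.95 on the KLF7 arrays and 7.10 to 8.16 on the control arrays, so the groups overlapped. All 6 erythroid markers measured had negative differences (median -0.33), 1 of them at an unadjusted p under 0.05, and the mean of that list was 5.51 to 5.97 on the KLF7 arrays and 5.74 to 6.31 on the control arrays. The part of these markers in the differences of the mitochondrial ribosomal protein genes was not tested.

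**Figure D5:**
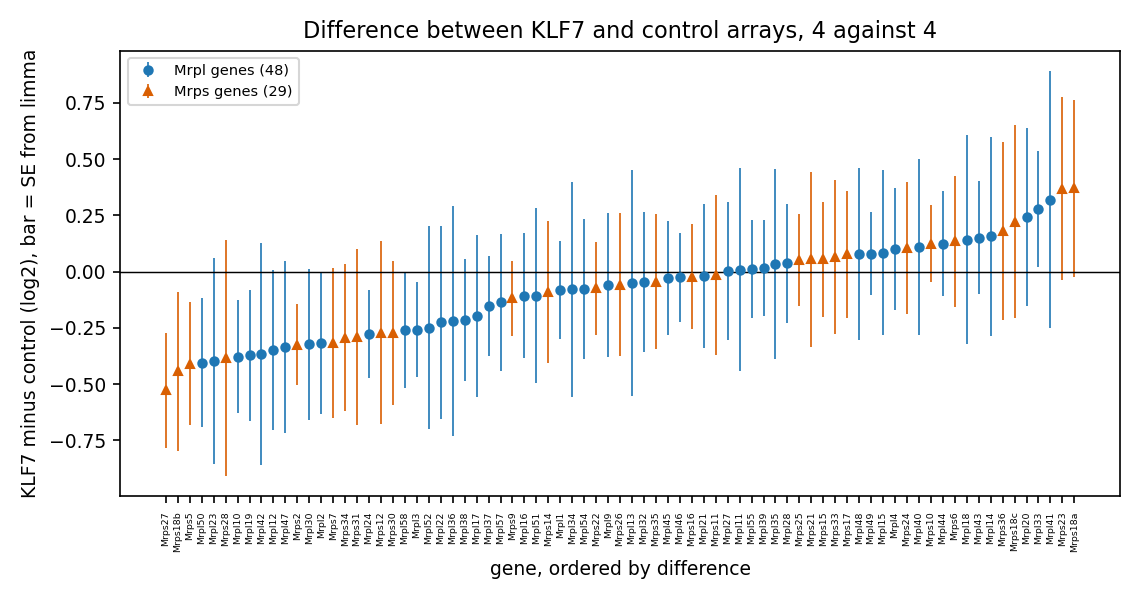
Points are the log2 difference between KLF7 and control arrays (4 against 4) for each of the 77 genes, ordered by size, with bars of 1 SE from limma. They run from -0.53 (Mrps27) to 0.37 (Mrps18a), and 47 of 77 lie below 0.

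Among the Mrps genes, Mrps27, a pentatricopeptide repeat protein of the small subunit, had the smallest p. It was at 5.34, 6.25, 5.21 and 6.16 on the KLF7 arrays (5.74 ± 0.54, SD, n = 4) and at 6.08, 6.46, 5.99 and 6.53 on the control arrays (6.27 ± 0.27, SD, n = 4), a difference of -0.53 (SE 0.26, adjusted p 0.645 in limma). The low arrays were KLF7 1 and KLF7 3, and the groups overlapped. Mrps2 was at 6.85, 7.46, 7.32 and 7.50 against 7.67, 7.53, 7.66 and 7.57, a difference of -0.32 (SE 0.18, adjusted p 0.715 in limma). It was the only gene of the 77 whose groups did not overlap, where 2.38% of all genes had all KLF7 arrays below all control arrays and 2.83% all above.

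Mrps5, the homologue of bacterial S5, was at 6.31, 6.94, 6.55 and 7.51 on the KLF7 arrays and at 6.74, 7.57, 7.27 and 7.37 on the control arrays, a difference of -0.41 (SE 0.27). Its second probe set gave -0.14. Mrps18b was at 7.08, 8.40, 7.19 and 8.64 against 7.95, 8.37, 8.13 and 8.62 (-0.44, SE 0.35). In both genes KLF7 1 and KLF7 3 were the low arrays.

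Among the Mrpl genes, Mrpl10, which joins the stalk to the ribosome, was at 7.42, 8.37, 8.08 and 8.63 on the KLF7 arrays and at 8.61, 8.45, 8.34 and 8.62 on the control arrays, a difference of -0.38 (SE 0.25, adjusted p 0.787 in limma). Here KLF7 1 and KLF7 3 stood below all control arrays. Mrpl24, the homologue of bacterial L24, differed by -0.28 (SE 0.20), Mrpl50, a large subunit protein found only in mitochondria, by -0.40 (SE 0.29) and Mrpl19, the homologue of bacterial L19, by -0.37 (SE 0.29).

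At the other end, Mrps18a was at 7.26, 8.23, 7.52 and 8.85 on the KLF7 arrays and at 6.95, 7.69, 7.27 and 8.47 on the control arrays (0.37, SE 0.39). Mrps23, a small subunit protein without a bacterial homologue, was at 6.99, 7.72, 6.91 and 8.33 against 7.17, 6.19, 7.05 and 8.06 (0.37, SE 0.41). The groups overlapped in both genes, and for Mrps23 control 2 was the lowest array of the 8. Mrpl41 differed by 0.32 (SE 0.57), and by -0.11 without KLF7 4 and -0.06 without control 1. Of the other genes named for their role, these differed by less than 1 SE: Mrpl12 by -0.35 (SE 0.36), Mrps12 by -0.27 (SE 0.41), Mrpl45 by -0.03 (SE 0.25) and Mrps18c by 0.22 (SE 0.43).

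The other genes of mitochondrial gene expression gave no call either. None of the 114 genes of the 7 lists had an adjusted p under 0.05 in limma, and 9 were lower and 1 higher at an unadjusted p under 0.05 (against 3.56% and 4.65% of all genes). Lower means prevailed, with 16 of 19 genes of mitochondrial genome expression and maintenance (median -0.18), 15 of 19 aminoacyl-tRNA synthetases (-0.13), 13 of 16 translation factors (-0.09), 15 of 20 import and chaperone genes (-0.14), 14 of 24 assembly factors (-0.05) and 10 of 12 nuclear regulators of mitochondrial genes (-0.19). Of the mitoribosome proteins whose symbols have another form 4 were measured, all with lower means (-0.33). Among all genes 49.6% had a lower mean. Lower means were not particular to mitochondrial genes, nor shared by all of them. Of the cytosolic ribosomal proteins 57 of 59 were lower (-0.19), and of the respiratory chain and ATP synthase genes 33 of 84 (0.07). The median turned to 0.03 without KLF7 1 and 0.06 without control 4 for the translation factors, and to 0.06 without KLF7 3 and 0.08 without control 4 for the import and chaperone genes.

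Twnk, the helicase that unwinds mitochondrial DNA, had the smallest p of these genes. It was at 5.58, 5.52, 5.60 and 6.30 on the KLF7 arrays and at 6.38, 6.26, 6.50 and 6.72 on the control arrays, a difference of -0.72 (SE 0.20, 1.65-fold lower, adjusted p 0.362 in limma). KLF7 4 reached the range of the control arrays and the other 3 KLF7 arrays lay below it. Myc, a transcription factor that activates many genes of ribosome and mitochondrial biogenesis, was at 10.41, 10.69, 10.83 and 10.87 against 11.52, 11.37, 11.29 and 11.13, without overlap (-0.63, SE 0.17, adjusted p 0.368 in limma). Ppargc1b, a coactivator of mitochondrial biogenesis, differed by -0.54 (SE 0.18).

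Guf1, a mitochondrial translation GTPase, differed by -0.62 (SE 0.20) and Ptcd3, a pentatricopeptide protein of the small subunit, by -0.61 (SE 0.21), each with an adjusted p over that of Twnk. Trub2, a pseudouridine synthase of mitochondrial RNA, differed by -0.54 (SE 0.21), Hspa9, the mitochondrial Hsp70, by -0.63 (SE 0.28), and the synthetase genes Sars2 and Tars2 by -0.42 (SE 0.17) and -0.37 (SE 0.15). Polg2, the accessory subunit of the mitochondrial DNA polymerase, was the 1 gene higher at an unadjusted p under 0.05 (0.41, SE 0.15). Other named genes of these lists also had positive differences. Timm17a, a subunit of the inner membrane import channel, was at 0.51 (SE 0.28) and Nfe2l2, a transcription factor of the oxidative stress response, at 0.32 (SE 0.22). Qrsl1, which helps make mitochondrial glutaminyl-tRNA, was at 0.30 (SE 0.18). Ppargc1a, a coactivator of mitochondrial biogenesis, was at 0.28 (SE 0.16), but its levels of 2.66 to 3.47 lay below every array median, so this value is uncertain.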

How the data were processed

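Total RNA of sorted cells was measured on 8 single-colour arrays (biotin label), 4 per group. The deposited values are probe set intensities on a linear scale, made by the authors in Affymetrix Expression Console by RMA (per the submitters' processing notes), so background was corrected and arrays were normalised before deposit, which can compress differences of dim genes. The sources used here give no versions and no genome build. Log2 was taken, and for each gene with 1 symbol the probe set with the highest mean was kept (19938 genes, no filter). The fit used lmFit, then eBayes with trend, of limma 3.58.1 under R 4.3.3 on all arrays, with no term but group, two-sided, with Benjamini-Hochberg adjustment over all genes and a threshold of 0.05. The arrays numbered 4 were compared with the others by differences and counts, without a test. The code was tested on simulated data.

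The named genes were the 4 of each subunit with the smallest p, the 3 highest and 3 lowest differences, the 4 largest and 4 smallest shifts on the arrays numbered 4, 6 taken by role, and up to 4 per pathway list by p. The members, lists and tests were chosen with earlier results of these data known. Of 214 list entries written, entries that were members or had no probe set with 1 symbol were left out. Classes by bacterial homologue, and the lists for the respiratory chain and the cytosolic ribosome (by symbol), were made after the files were read. Promoters came from RefSeq (GRCm38.p6). Alternatives were 21 other fits and a looser threshold. Figures were drawn with matplotlib 3.10.9.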

Additional observations from a re-analysis of the deposited data

Results flagged for a closer look

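In 2 of 44 comparisons of an array with the other 3 of its group, over the named genes, Klf7 and the mean of the 77 genes, 1 array stood far from the rest by Dixon's criterion, and chance flags about 1 in 20. Mrpl24 was at 8.13 on control 1, against 8.67 to 8.73 on the other control arrays. Mrpl52 was at 9.04 on control 4, against 7.45 to 7.70 on the other control arrays.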

How the results depend on the processing

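No mitochondrial ribosomal protein gene and no gene of the pathway lists passed an adjusted p of 0.05 in limma under any of the 21 other fits, nor did a member pass at 0.1. Among the pathway genes Twnk passed 0.1 with the replicate block (adjusted p 0.065) and with the term for the arrays numbered 4 (0.079). Counts over all genes were 90 with the replicate number as a block (75 higher, 15 lower), 26 with a term for the arrays numbered 4 (23 higher, 3 lower), and 0 to 1 when single arrays were left out (1 without KLF7 3 and 1 without control 4). The labels do not say whether the replicate numbers pair the arrays, and the main fit had no such block. Deviations of same-numbered arrays correlated at 0.35, -0.13, 0.36 and 0.70 for numbers 1 to 4. The arrays numbered 1, 3 and 4 each correlated best with the array of the same number, while KLF7 2 and control 2 did not. Pairing by number was therefore not settled. With the replicate block, 2 members were lower at an unadjusted p under 0.05 (2.60%, against 5.92% of all genes). In that fit 1 member was higher, and the smallest adjusted p of a member in limma was 0.150. With the term for the arrays numbered 4, 1 was lower (1.30%, against 5.44% of all genes, smallest adjusted p 0.369). The members' median ran from -0.28 to 0.11 over the fits that left out 1 array. With array weights Mrpl34 was at 0.17, Mrpl13 at 0.15, Mrpl45 at 0.026 and Chchd1, a small subunit gene with another symbol, at 0.056, each of the opposite sign to its main value. Leaving out single arrays turned the sign of 10 named genes, with ranges of -0.40 to 0.30 for Mrpl34, -0.47 to 0.31 for Mrpl13, -0.23 to 0.16 for Mrpl45, -0.61 to 0.11 for Mrpl52, -0.55 to 0.087 for Mrps12, -0.38 to 0.25 for Chchd1, -0.11 to 0.80 for Mrpl41, -0.018 to 0.19 for Mrpl49, -0.052 to 0.48 for Mrps18c and -0.0013 to 0.20 for Mrps10. The cause was not tested. Over the normalisation, probe set, filter and offset alternatives, 61 to 69 of the 77 genes were highest on the arrays numbered 4 in both groups. Median shifts there were 0.81 to 1.08 in the KLF7 group and 0.67 to 0.89 in the control group. Without both arrays of number 1, 2 or 3 the count was 66 to 71. Leaving out arrays that number 4 must exceed can only keep or raise that count, so it does not test its stability.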
